A study of Homo sapiens with 22 samples.

Results

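GR3 cells and WZ4002-tolerant cells, 2 derivatives of the PC9 line, were compared under WZ4002. PC9 is an established human lung adenocarcinoma line driven by a mutant, constitutively active EGFR. WZ4002 is a covalent inhibitor of that receptor. The comparison rests on 4 of the 22 libraries of the study: libraries 1 and 2 of PC9-GR3 (GR3) given WZ4002, and libraries 1 and 2 of the WZ4002-tolerant derivative given WZ4002. They were chosen by their labels and not by a measured value. Earlier results of these data were known when the comparisons were chosen. The same derivatives given vehicle, 2 libraries each, showed how the populations differed without inhibitor. PC9-GR2 (GR2) and parental PC9 cells given WZ4002 serve as further levels under the same drug. Their vehicle levels are given for a single gene list. Summed levels of gefitinib-tolerant PC9 cells, given gefitinib or vehicle, are set beside some gene lists. Every group was treated for 24 h, and the labels give the dose of WZ4002 and of gefitinib as 1 mM, although the unit is doubtful. The labels do not say how GR3 or the tolerant cells were derived, whether either is a clone, or whether the libraries of a group came from separate cultures. The p-values therefore refer to variation between libraries, which may be technical. That variation was estimated over all 22 libraries of the study, in 11 groups, and not from the libraries compared alone.

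EGFR signals through RAS to the kinase ERK and through PI3K to AKT. ERK drives transcription of its own feedback inhibitors, so transcripts such as those of the DUSP phosphatases and of the ETV transcription factors are widely read as a gauge of ERK activity. Cells that survive an EGFR inhibitor without dying are called drug-tolerant. Such cells have been described with altered adhesion, TGF-beta, NF-kB and YAP signalling. Integrins, which bind the extracellular matrix, and the laminins and fibronectin they bind, link adhesion to the same kinases.

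Values are CPM, in which each library's reads are divided by their sum and put on a common scale, and differences are GR3 minus tolerant on the scale log2(CPM + 1), each with its standard error from limma. That scale understates the change of genes near 0 CPM. A gene is called where the p-value, adjusted over all 15485 genes tested, is under 0.05. The GR3 libraries under WZ4002 held 46.18 and 38.83 M reads and the tolerant ones 34.76 and 45.4 M reads. The median SD between the 2 libraries of a group was 0.13 in GR3 and 0.141 in tolerant cells under WZ4002, on the log2 scale. Under vehicle it was 0.181 in GR3, the largest of all groups, and 0.117 in tolerant cells. The paired libraries differed beyond sampling noise and were counted as 2 samples. The epithelial markers EPCAM, CDH1, KRT7, KRT8 and KRT18 were present in all 4 libraries, at 106.92 CPM or more. Of 18 leukocyte, endothelial and fibroblast markers, 10 were in the table and 5 passed the filter on low values. Their summed level was 26.2 and 24.0 CPM in GR3, against 66.3 and 37.4 CPM in tolerant cells. The endothelial cadherin CDH5 (5.54 and 7.88 CPM in GR3, 37.23 and 13.96 CPM in tolerant cells) and the leukocyte integrin ITGAM (2.79 and 2.91 CPM, against 10.24 and 8.13 CPM) made most of that difference. The difference of CDH5 was -1.65 (adjusted p = 0.00243), and -0.97 without tolerant library 1 (adjusted p = 0.0394). The defining markers PTPRC, CD3E, CD68, LYZ, PECAM1, COL3A1 and DCN were not analysed here.

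Under WZ4002, GR3 cells had 2278 genes called higher and 2157 called lower than tolerant cells, which is 14.7% and 13.9% of the genes tested. The counts given below for each gene list under WZ4002 are to be read beside those shares. The lists were chosen with earlier results of these data known. The median difference over all genes was 0.013. Differences of at least 2-fold made up 1405 of the 4435 calls, 653 higher and 752 lower. Without tolerant library 2 the number called was 2453, of which 2364 were among the 4435.

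The largest differences were genes lower in GR3 than in tolerant cells, which alone does not say which population changed. PXDN, a peroxidase that crosslinks collagen IV in basement membranes, had 0.06 and 0.23 CPM in GR3, against 231.57 and 186.53 CPM in tolerant cells (-7.51 ± 0.16, adjusted p = 3.12e-14). INHBA, the activin A subunit, had 2.43 and 1.6 CPM in GR3, against 105.7 and 159.51 CPM in tolerant cells (-5.45 ± 0.44, adjusted p = 4.94e-07). In both genes the libraries of each population lay together and the populations lay far apart. Over all genes tested the libraries of the 2 groups did not overlap for 63.2%, with GR3 above for 33% and below for 30.3%. GABRE, a GABA receptor subunit, had 0.15 and 0.1 CPM in GR3, against 79.35 and 29.25 CPM in tolerant cells. ANKRD1, a YAP target, had 1.28 and 2.99 CPM, against 72.24 and 139.31 CPM. CEACAM6, a surface adhesion glycoprotein, had 22.8 and 18.46 CPM, against 757.12 and 542.35 CPM. These 3 differed by -5.45 ± 0.37, -5.07 ± 0.42 and -4.90 ± 0.35. Their libraries did not overlap, which the choice of the genes named here required. TCIM, the cystatin CST1, the integrin chain ITGB6 and the tight junction protein CLDN1 were also among the 12 genes furthest below tolerant cells. So were the oxidised LDL receptor OLR1 and the annexin ANXA1. These others ranged from -4.96 to -4.01.

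The genes furthest above tolerant cells in GR3 had smaller differences and were of a different kind. AOC1, the diamine oxidase that degrades histamine, had 146.09 and 201.56 CPM in GR3, against 5.26 and 4.78 CPM in tolerant cells (4.84 ± 0.55, adjusted p = 1.17e-05). METTL7A had 104.6 and 96.31 CPM, against 7.54 and 2.55 CPM (4.20 ± 0.39, adjusted p = 2.06e-06). The L-type calcium channel subunit CACNA1D had 17.17 and 13 CPM in GR3, against 0.06 and 0.07 CPM (3.90 ± 0.16, adjusted p = 4e-10). The calcium channel and the histamine oxidase were thus present at moderate levels in GR3 and near 0 or low in tolerant cells. The lack of overlap was required by the choice of genes. IGFBP5, a secreted IGF-binding protein, was the most abundant of the 12 at 968.28 and 1505.3 CPM in GR3, against 240.2 and 59.51 CPM (3.32 ± 0.70, adjusted p = 0.00229). Its call was lost without tolerant library 2 (2.32, adjusted p = 0.0536). DMBT1, a mucosal glycoprotein, had 9.92 and 40.59 CPM, against 0.17 and 0.02 CPM (4.29 ± 1.11, adjusted p = 0.00901), and its call was lost without GR3 library 2 (3.32, adjusted p = 0.0945) and without tolerant library 2 (4.19, adjusted p = 0.0593). Limma-voom did not call DMBT1 either (adjusted p = 0.213). The others were TNS1, a focal adhesion protein, the imprinted RNA H19, the aminotransferase AGXT, SUSD2, RASL11A, the antiviral membrane protein BST2 and SCDP1, from 4.17 to 3.32. SCDP1 is a pseudogene of the desaturase SCD, and the counting may have split reads between the copies.

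**Figure D1:**
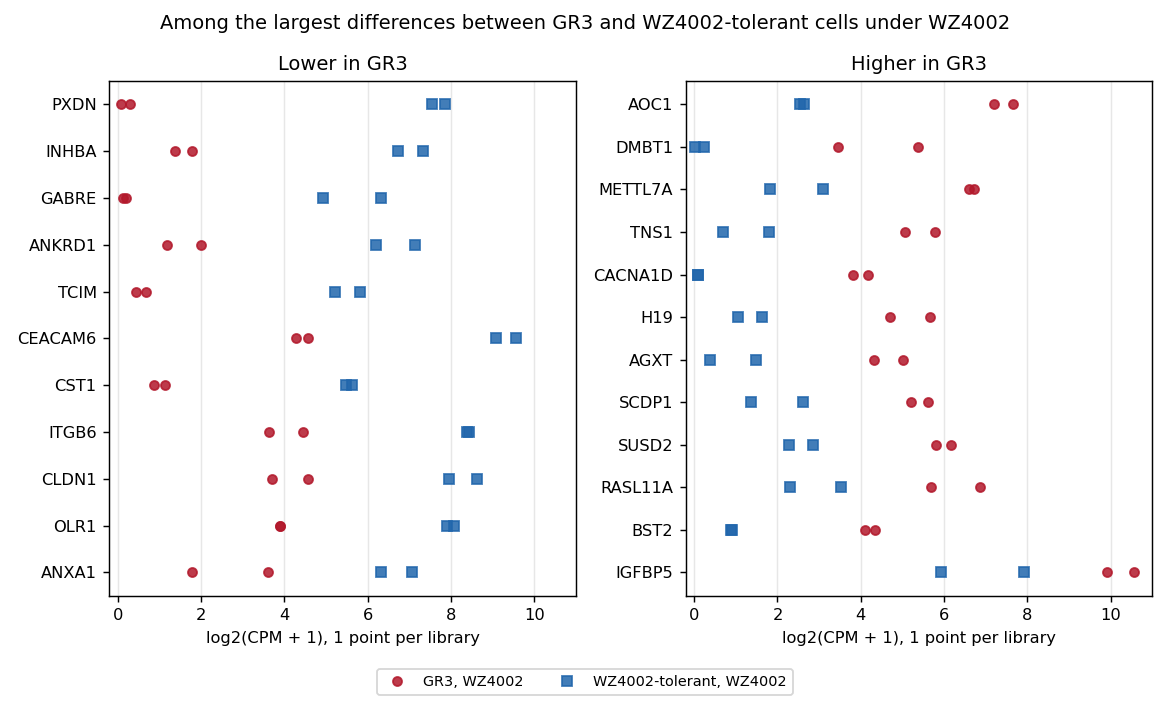
Genes named among the 12 largest differences in each direction, with log2(CPM + 1) on the horizontal axis and genes down the page; circles are the 2 GR3 libraries and squares the 2 tolerant libraries, all under WZ4002. The populations do not overlap for any gene, which the choice of genes required, and PXDN, at 0.06 and 0.23 CPM in GR3 against 231.57 and 186.53 CPM, is the widest gap.

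Some genes were near silence in one population and expressed in the other. Of the called genes with a symbol, 29 were under 1 CPM in both GR3 libraries and at 5 CPM or more in both tolerant libraries, and 15 were the other way round. Among the 29 were PXDN, GABRE, TCIM, the prostaglandin synthase PTGS2, the cytokine IL6, the GTPase-activating protein DLC1 and the salivary cystatins CST2 and CST4. PTGS2 had 0.06 and 0.08 CPM in GR3, against 6.7 and 7.18 CPM in tolerant cells. DLC1 had 0.02 and 0.1 CPM, against 8.06 and 6.45 CPM. Among the 15 were CACNA1D, the neuronal secreted protein NELL2, the endocytic receptor LRP2, the follistatin gene FST, the apelin gene APLN and AADACL3. AADACL3 had 9.96 and 8.03 CPM in GR3, against 0.03 and 0.18 CPM in tolerant cells. CST1, CST2 and CST4 are near-identical copies, so the division of reads among them is uncertain.

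The EGFR ligands TGFA and HBEGF were lower in GR3, and the receptor itself was not called. TGFA, a growth factor that binds EGFR, had 14.55 and 25.19 CPM in GR3, against 107.14 and 159.64 CPM in tolerant cells (-2.71 ± 0.28, adjusted p = 4.96e-06). HBEGF, the heparin-binding ligand, had 1.02 and 3.43 CPM, against 6.99 and 18.08 CPM (-2.05 ± 0.51, adjusted p = 0.00707). The GR3 libraries lay below the tolerant ones for both ligands. EGFR had 536.47 and 372.66 CPM in GR3, against 665.11 and 631.42 CPM, a difference of -0.53 with a 95% interval of -1.05 to -0.02 (adjusted p = 0.116). ERBB3, the kinase-poor partner that recruits PI3K, was higher, at 187.18 and 169.37 CPM in GR3, against 109.59 and 75.55 CPM (0.96 ± 0.26, adjusted p = 0.0105). ERRFI1, the feedback inhibitor of EGFR, had 25.12 and 33.37 CPM, against 45.11 and 80.63 CPM (-1.03 ± 0.30, adjusted p = 0.0171). In all, 1 of 13 EGFR family and ligand genes was called higher and 4 lower (14.7% and 13.9% over all genes), with a median of -0.19. Only 1 was called lower without GR3 library 1, or without tolerant library 2. Without GR3 library 1 the adjusted p was 0.095 for HBEGF, 0.128 for ERRFI1 and 0.0662 for ERBB3, and without tolerant library 2 it was 0.12, 0.237 and 0.14 in the same order.

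Among receptor kinases and ligands that can bypass EGFR, 6 of 18 were called higher and 3 lower, with a median of -0.07. The fibroblast growth factor receptor FGFR3 had 46.19 and 40.48 CPM in GR3, against 3.63 and 3.46 CPM in tolerant cells (3.28 ± 0.32, adjusted p = 2.99e-06). FGFR4 had 9.83 and 9.4 CPM, against 3.02 and 2.03 CPM (1.60 ± 0.25, adjusted p = 0.00022). FGFR1 had 39.15 and 33.3 CPM, against 16.8 and 19.54 CPM (0.96 ± 0.19, adjusted p = 0.00178). All 3 FGF receptors were higher in GR3 in each library. MET, the hepatocyte growth factor receptor, was lower at 46.3 and 35.59 CPM, against 118.48 and 114.4 CPM (-1.50 ± 0.21, adjusted p = 0.000101). IGFBP3, an abundant carrier of insulin-like growth factors, was lower at 468.28 and 786.91 CPM, against 2365.78 and 2109.79 CPM (-1.88 ± 0.31, adjusted p = 0.000321). AXL, a kinase often linked to inhibitor tolerance, had 145.25 and 81.27 CPM in GR3, against 108.32 and 106.67 CPM, and the difference of 0.02 had a 95% interval of -0.57 to 0.60. FGFR1 and AXL were named after their values were seen.

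ERK output genes were lower in GR3 than in tolerant cells under the drug. Of 17 ERK output genes, 9 were called lower and 1 higher, with a median of -1.37, against 13.9% and 14.7% of all genes. IER3, an early response gene, had 2.32 and 4.02 CPM in GR3, against 30.18 and 62.0 CPM in tolerant cells (-3.44 ± 0.29, adjusted p = 8.35e-07). The transcription factor ETV5 had 0.84 and 0.67 CPM, against 5.84 and 18.26 CPM (-2.71 ± 0.38, adjusted p = 9.42e-05). ETV4 had 1.97 and 1.36 CPM, against 6.59 and 15.31 CPM (-2.07 ± 0.31, adjusted p = 0.000139). In these 3 genes tolerant library 2 was well above tolerant library 1, and both stood above GR3. The ERK phosphatase DUSP4 had 13.9 and 14.34 CPM, against 45.37 and 77.64 CPM (-2.0 ± 0.32, adjusted p = 0.000307). DUSP6 had 0.32 and 0.08 CPM, against 1.01 and 3.77 CPM (-1.37 ± 0.41, adjusted p = 0.0208). The DUSP6 call was lost without GR3 library 1 (adjusted p = 0.0527), GR3 library 2 (0.11) or tolerant library 2 (-0.75, adjusted p = 0.292). SPRY1 alone was higher (1.10 ± 0.34, adjusted p = 0.023) and was not called without any 1 of the 4 libraries; it was named after its values were seen. Without tolerant library 2, 6 of the 17 were called lower and the median was -0.75, and without GR3 library 1 the counts were 7 and -0.90.

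**Figure D2:**
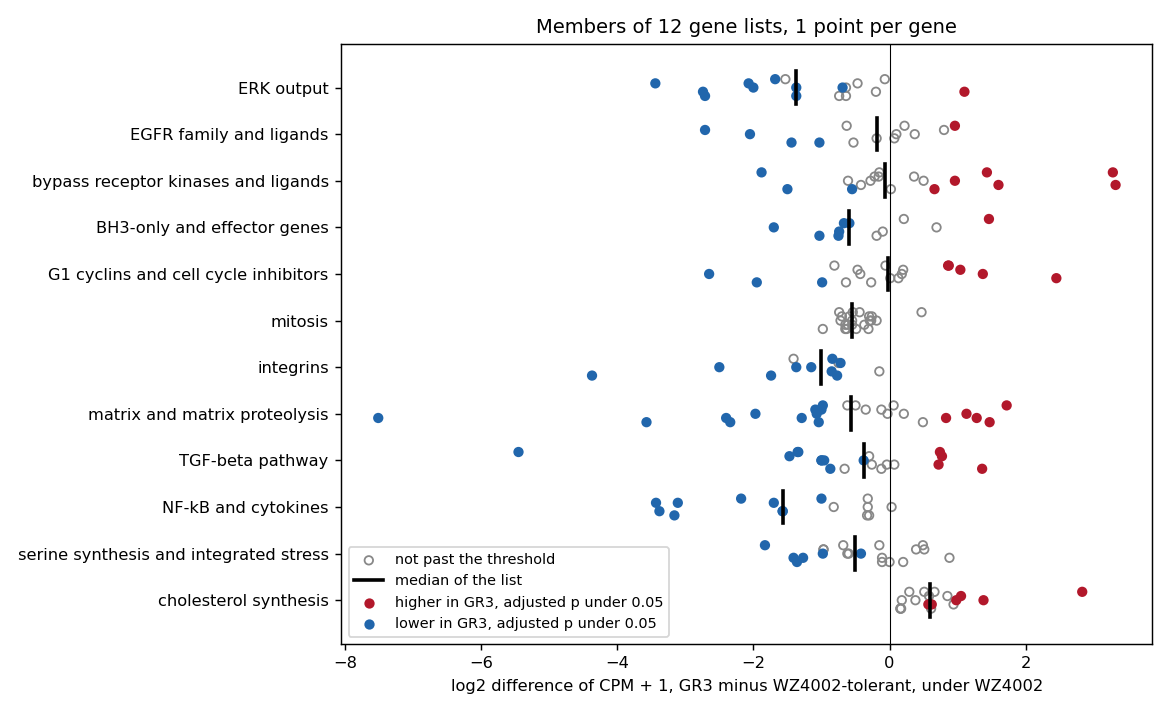
Members of 12 gene lists, each point a gene at its log2 difference of CPM + 1, GR3 minus tolerant, under WZ4002; filled points passed the threshold, open ones did not, and the bar is the list's median. ERK output, integrins and NF-kB genes lie mostly to the left, with medians of -1.37, -1.0 and -1.57, and cholesterol synthesis genes lie to the right with a median of 0.59.

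Integrins were lower in GR3 than in tolerant cells as a group. Of 12 integrin genes, 9 were called lower and 0 higher, and all 12 differences were negative, with a median of -1.0. ITGB6, the chain of the integrin that activates latent TGF-beta, had 20.96 and 11.38 CPM in GR3, against 345.07 and 334.1 CPM in tolerant cells (-4.37 ± 0.32, adjusted p = 2.52e-07). ITGA2, the collagen-binding chain, had 26.62 and 39.09 CPM, against 173.6 and 202.88 CPM (-2.50 ± 0.24, adjusted p = 2.58e-06). ITGAV had 65.64 and 53.67 CPM, against 235.28 and 171.91 CPM (-1.74 ± 0.30, adjusted p = 0.000496). Every tolerant library was above every GR3 library for these chains, and ITGB1, the shared beta chain, was also lower (-1.15 ± 0.17, adjusted p = 0.000113). Between 6 and 8 of the 12 were called lower when any 1 of the 4 libraries was left out, and 0 higher.

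Basement membrane and matrix genes followed the same split in part, with 11 of 24 called lower and 5 higher and a median of -0.56. The laminin chain LAMA3, part of an adhesive protein of epithelial basement membranes, had 52.67 and 44.19 CPM in GR3, against 265.06 and 252.83 CPM in tolerant cells (-2.40 ± 0.27, adjusted p = 9.77e-06). Its GR3 libraries lay far below the tolerant ones. Fibronectin, FN1, named after its values were seen, had 150.01 and 245.39 CPM in GR3, against 2759.39 and 1893.83 CPM (-3.57 ± 0.46, adjusted p = 3.7e-05). Among the 5 higher genes, THBS2, a matricellular protein, had 2.34 and 2.52 CPM, against 0.06 and 0.02 CPM (1.72 ± 0.12, adjusted p = 1.26e-07). The count of higher matrix genes was 3, 4, 3 and 2 without GR3 library 1, GR3 library 2, tolerant library 1 and tolerant library 2. Without the same libraries 10, 10, 11 and 10 were lower.

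In the TGF-beta pathway 9 of 19 genes were called lower and 4 higher, with a median of -0.38. Beside INHBA, the receptor TGFBR2 had 10.7 and 10.17 CPM in GR3, against 30.35 and 31.1 CPM in tolerant cells (-1.47 ± 0.17, adjusted p = 1.27e-05). The signal transducer SMAD3 had 48.84 and 36.8 CPM, against 111.28 and 108.23 CPM (-1.35 ± 0.14, adjusted p = 6.25e-06). LTBP1, which holds latent TGF-beta in the matrix, had 19.27 and 11.59 CPM, against 45.46 and 34.34 CPM (-1.34 ± 0.24, adjusted p = 0.000687). INHBA, TGFBR2, SMAD3 and LTBP1 were thus each lower in both GR3 libraries, whereas 4 other genes of the list were called higher. Without tolerant library 1 the pathway had 5 genes lower and 3 higher, and without tolerant library 2 it had 5 lower and 1 higher. Without GR3 library 1 it had 6 lower and 1 higher, and without GR3 library 2 it had 6 lower and 2 higher.

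The difference was not a shift of the whole epithelial or mesenchymal list. Of 16 mesenchymal genes, 4 were called lower and 3 higher (13.9% and 14.7% over all genes), with a median of -0.09. The collagen VI chains COL6A1 and COL6A2 were lower (-2.26 ± 0.26, adjusted p = 1.38e-05, and -1.61 ± 0.18, adjusted p = 1.23e-05), whereas SPARC, a collagen-binding glycoprotein, was higher at 9.29 and 7.65 CPM in GR3, against 0.55 and 0.18 CPM. VIM, the mesenchymal filament gene, named after its values were seen, had 4.35 and 1.49 CPM in GR3, against 3.65 and 4.78 CPM in tolerant cells. Of 22 epithelial genes, 6 were called in each direction, with a median of -0.01. CLDN1 (12.11 and 22.87 CPM in GR3, 244.89 and 391.08 CPM in tolerant cells), the keratin KRT7 (708.71 and 715.73 CPM, against 2277.43 and 2232.8 CPM) and EPCAM were lower. The epithelial transcription factor GRHL2 (181.61 and 197.44 CPM, against 94.17 and 80.94 CPM) and the keratin KRT8 (1792.92 and 2264.37 CPM, against 1126.65 and 950.02 CPM) were higher. Higher epithelial calls numbered 3 without GR3 library 2 and 3 without tolerant library 2, and higher mesenchymal calls 2 without tolerant library 2.

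The levels of GR2 and parental cells under WZ4002 placed some of these genes with GR3 and others with the tolerant cells. PXDN had 60.68 and 48.26 CPM in GR2 cells and 114.06 and 125.66 CPM in parental cells, far above GR3. INHBA had 7.66 and 3.83 CPM in GR2 cells and 2.33 and 2.7 CPM in parental cells, close to GR3. ITGA2 had 20.12 and 22.08 CPM in GR2 cells and 21.34 and 19.23 CPM in parental cells, below GR3, and the tolerant libraries alone were above 100 CPM. CACNA1D had 0.07 and 0.03 CPM in GR2 cells and 0.03 and 0.06 CPM in parental cells, so GR3 alone was above 1 CPM. AXL had 5.36 and 2.69 CPM in GR2 cells and 5.94 and 8.81 CPM in parental cells, below every GR3 and tolerant library. The ERK output list summed to 219 and 263 CPM in GR3 and 381 and 681 CPM in tolerant cells. In GR2 cells it was 117 and 161 CPM, and in parental cells 144 and 197 CPM. In the same order, integrins summed to 863 and 717, 2041 and 1900, 736 and 658, and 758 and 689 CPM. NF-kB and cytokine genes summed to 210 and 331, 649 and 715, 267 and 347, and 176 and 223 CPM. Among these populations the WZ4002-tolerant libraries had the highest sums for each list. In gefitinib-tolerant cells given gefitinib, a different drug, the ERK output list summed to 490 and 314 CPM. Their integrins summed to 2109 and 1925 CPM and their NF-kB and cytokine genes to 669 and 442 CPM. High sums were thus not particular to WZ4002-tolerant cells. The GR2, parental and gefitinib-tolerant levels were not tested against GR3 or WZ4002-tolerant cells.

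**Figure D3:**
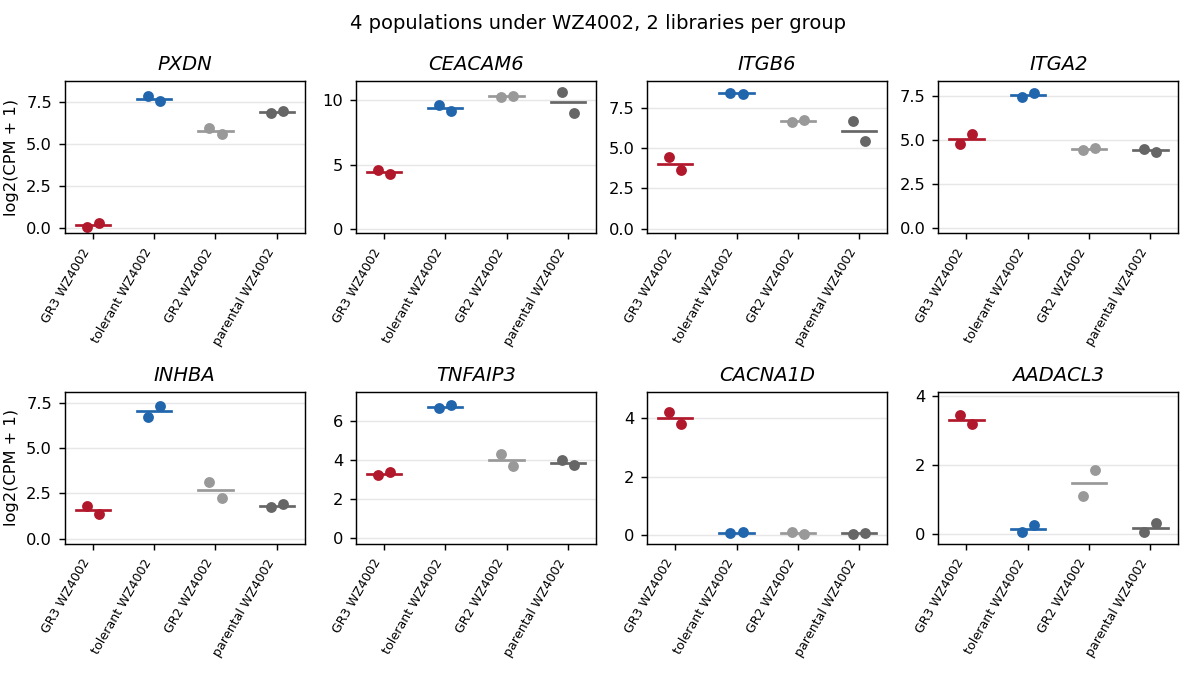
Levels of 8 genes under WZ4002 as log2(CPM + 1), with a panel per gene, points for the 2 libraries of a group and a bar for their mean, in GR3, tolerant, GR2 and parental cells. PXDN is near 0 in GR3 alone, INHBA is high in tolerant cells alone, at 105.7 and 159.51 CPM, and CACNA1D is above 1 CPM in GR3 alone.

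NF-kB targets and cytokines were the list with the lowest median, -1.57, with 9 of 15 called lower and 0 higher. NF-kB is a transcription factor that induces cytokines and its own inhibitors. TNFAIP3, an inhibitor of that pathway, had 8.29 and 9.63 CPM in GR3, against 100.29 and 112.77 CPM in tolerant cells (-3.43 ± 0.30, adjusted p = 1.31e-06). BIRC3, a ubiquitin ligase that limits cell death, had 14.31 and 12.36 CPM, against 119.05 and 134.35 CPM (-3.16 ± 0.44, adjusted p = 8.5e-05). IL32, a cytokine, had 2.56 and 1.0 CPM, against 24.37 and 29.43 CPM (-3.38 ± 0.34, adjusted p = 4.51e-06). In each of the 3 genes both tolerant libraries were high and close together. LIF, a cytokine of the interleukin-6 family, had 7.67 and 9.99 CPM, against 40.48 and 46.21 CPM (-2.18 ± 0.22, adjusted p = 3.32e-06). IL6 itself had 0.17 and 0.08 CPM, against 5.21 and 14.21 CPM (-3.11 ± 0.44, adjusted p = 9.35e-05). Between 8 and 10 of the 15 were called lower without any 1 of the 4 libraries, and the median was -1.01 without GR3 library 1. The leukocyte and endothelial markers ITGAM and CDH5 were also lower in GR3, and their part in the result was not tested.

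The promoters of TNFAIP3 and BIRC3 are shown because both genes were among the 9 called lower and each holds a pair of kappa B motifs, the sites that NF-kB is known to bind. The sequences are from RefSeq, build GRCh38.p14, run from 250 bases before to 50 bases after the gene start on the gene's strand, and have the motifs, all on the opposite strand, in capitals. They lie at chr6:137867009-137867308 (+) for TNFAIP3 and chr11:102317234-102317533 (+) for BIRC3.
TNFAIP3: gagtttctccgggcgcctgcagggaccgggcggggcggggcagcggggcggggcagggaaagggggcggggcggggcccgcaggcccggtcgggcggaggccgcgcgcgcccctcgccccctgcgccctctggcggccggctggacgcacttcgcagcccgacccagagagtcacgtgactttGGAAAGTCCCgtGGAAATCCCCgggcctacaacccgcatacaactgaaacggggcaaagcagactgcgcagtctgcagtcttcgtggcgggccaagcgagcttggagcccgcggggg
BIRC3: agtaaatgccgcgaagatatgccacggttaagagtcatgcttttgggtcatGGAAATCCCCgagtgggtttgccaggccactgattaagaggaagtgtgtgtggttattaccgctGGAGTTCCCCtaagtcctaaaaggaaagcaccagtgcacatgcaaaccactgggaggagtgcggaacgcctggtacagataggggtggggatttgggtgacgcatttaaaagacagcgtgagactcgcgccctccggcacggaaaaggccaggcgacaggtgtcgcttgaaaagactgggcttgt
The kappa B motif, searched on both strands, was in 11.3% of 35116 RefSeq promoters of the same length, belonging to 13.3% of genes. Of the 15 NF-kB and cytokine genes tested, 13 had a promoter and 8 of these held the motif, among them IL6 and IL32. The list was written from general knowledge of NF-kB genes, with earlier results of these data known. Its share of motifs reflects that choice and is no result of these data. A match describes the letters and shows no binding.

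Several genes that execute apoptosis were lower in GR3. Of 11 BH3-only and effector genes of the BCL2 family, 6 were called lower and 1 higher, with a median of -0.59. BIK had 0.65 and 0.8 CPM in GR3, against 4.6 and 4.63 CPM in tolerant cells (-1.70 ± 0.26, adjusted p = 0.000164). BID, which links death receptors to mitochondria, had 22.74 and 26.89 CPM, against 38.55 and 46.03 CPM (-0.75 ± 0.13, adjusted p = 0.000613). HRK was the exception, at 22.39 and 25.34 CPM in GR3, against 9.61 and 6.67 CPM (1.46 ± 0.35, adjusted p = 0.00553). BCL2L11, which encodes BIM, the main mediator of cell death after EGFR inhibition, had 29.89 and 34.89 CPM in GR3, against 42.64 and 32.09 CPM, so the groups overlapped (-0.19, 95% interval -0.57 to 0.19). The survival gene MCL1 had 135.85 and 140.66 CPM, against 133.72 and 109.18 CPM (0.19, 95% interval -0.08 to 0.47). Of 9 survival genes of the BCL2 and inhibitor of apoptosis families, BIRC3 alone was called, and it was lower. Without GR3 library 1, GR3 library 2 or tolerant library 2, 3, 3 and 2 of the 11 death genes were called lower. The HRK call was lost without tolerant library 2 (1.23, adjusted p = 0.0693).

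In the death receptor pathway 2 of 14 genes were called higher and 1 lower, no more than the shares of all genes (14.7% higher and 13.9% lower). The death ligand TNFSF10 had 13.51 and 8.6 CPM in GR3, against 3.77 and 1.06 CPM in tolerant cells (1.91 ± 0.37, adjusted p = 0.00129). CASP8, the initiator caspase, had 16.2 and 14.73 CPM, against 25.52 and 23.5 CPM (-0.63 ± 0.13, adjusted p = 0.00253). The ligand was higher and the initiator lower, in both libraries of GR3. The number called lower was 3 without GR3 library 1 and 2 without GR3 library 2.

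Proliferation genes were seldom called. Of 22 mitosis genes 0 were called by limma, with a median of -0.54, and limma-voom also called 0. The GR3 libraries differed from each other: CDK1, the mitotic kinase, had 51.8 and 18.72 CPM in GR3, against 60.5 and 65.2 CPM in tolerant cells. The summed level of the mitosis list was 1681 and 462 CPM in GR3, against 1202 and 1277 CPM in tolerant cells. Library 1 of GR3 stood above both tolerant libraries and library 2 below both. The median of the list was -1.37 without GR3 library 1 and 0.35 without GR3 library 2. Of 23 DNA replication genes, 2 were called lower and 1 higher, with a median of -0.48. Without GR3 library 2, 0 were lower and 1 higher, and without tolerant library 2 none was called in either direction.

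Inhibitors of the cell cycle differed gene by gene, with 5 of 18 G1 genes and inhibitors called higher and 3 lower (14.7% and 13.9% over all genes). CDKN1A, which encodes p21, had 3.38 and 2.68 CPM in GR3, against 17.72 and 32.95 CPM in tolerant cells (-2.65 ± 0.39, adjusted p = 0.000132). CDKN1B, which encodes p27, had 69.02 and 78.54 CPM, against 40.94 and 39.47 CPM (0.86 ± 0.13, adjusted p = 0.000147). CDKN1C, which encodes p57, had 8.38 and 4.48 CPM, against 0.29 and 0.33 CPM (2.45 ± 0.23, adjusted p = 2.58e-06). The 3 members of that inhibitor family thus did not move together: p21 was lower in GR3, and p27 and p57 were higher. RBL2, a retinoblastoma relative of quiescent cells, was higher at 98.15 and 94.15 CPM, against 54.63 and 38.92 CPM. Higher calls numbered 3 without GR3 library 1 and 3 without tolerant library 2, and lower calls 6 without tolerant library 1.

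Cholesterol genes were on the high side in GR3. All 18 differences were positive, with a median of 0.59, and 6 were called higher and 0 lower. INSIG1, the sterol-regulated brake, had 225.12 and 212.51 CPM in GR3, against 103.03 and 67.71 CPM in tolerant cells (1.38 ± 0.38, adjusted p = 0.0124). Tolerant library 2 was the lower of the tolerant pair for INSIG1, and both GR3 libraries exceeded both tolerant ones. The count of calls was 2 without GR3 library 1, 3 without GR3 library 2 and 2 without tolerant library 2. INSIG1 was not called without GR3 library 1 (adjusted p = 0.0626) or tolerant library 2 (0.134).

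Of 20 NRF2 and glutathione genes, 6 were called higher and 2 lower (14.7% and 13.9% over all genes), with a median of 0.28. The quinone reductase NQO1 had 684.99 and 711.18 CPM in GR3, against 316.27 and 372.93 CPM in tolerant cells (1.02 ± 0.17, adjusted p = 0.000392). PGD, an NADPH-producing enzyme, had 248.85 and 324.43 CPM, against 123.6 and 114.05 CPM (1.25 ± 0.20, adjusted p = 0.000303). GSR, which regenerates glutathione, had 136.83 and 149.41 CPM, against 80.9 and 77.73 CPM (0.84 ± 0.14, adjusted p = 0.000289). These NADPH and glutathione enzymes were higher in both GR3 libraries, whereas GPX4, the enzyme that removes lipid peroxides, was lower at 87.17 and 84.21 CPM in GR3, against 182.35 and 170.39 CPM (-1.03 ± 0.15, adjusted p = 9.44e-05). Without GR3 library 2, and without tolerant library 2, 1 of the 20 was called lower.

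GPX4 was also among 6 of 15 drug tolerance and stem markers called lower in GR3, beside 1 called higher. ABCG2, a drug efflux pump, had 5.78 and 7.8 CPM in GR3, against 44.97 and 60.06 CPM in tolerant cells (-2.78 ± 0.32, adjusted p = 1.36e-05). SOX9, a progenitor transcription factor, had 13.04 and 13.29 CPM, against 43.7 and 42.13 CPM (-1.63 ± 0.19, adjusted p = 1.45e-05). IGFBP2, an IGF carrier, was the higher one, at 48.42 and 52.41 CPM, against 15.39 and 14.03 CPM (1.71 ± 0.24, adjusted p = 7.9e-05). The number called lower was 6 without each of the 4 libraries in turn, although the median of the list was 0.03. Without tolerant library 1, 2 were higher.

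Of 17 antigen presentation genes, 3 were called in each direction, near the shares of all genes (14.7% higher and 13.9% lower). B2M, the light chain of MHC class I, had 348.65 and 400.91 CPM in GR3, against 646.64 and 726.46 CPM in tolerant cells (-0.87 ± 0.16, adjusted p = 0.000951). The class II invariant chain CD74 had 12.99 and 8.7 CPM, against 0.29 and 0.11 CPM (3.28 ± 0.32, adjusted p = 3.32e-06). CIITA, the class II transactivator, had 7.73 and 3.22 CPM, against 0.72 and 0.13 CPM (2.12 ± 0.32, adjusted p = 0.000157). The class I light chain was lower and these 2 class II genes were higher, each without overlap. Of 16 interferon-stimulated genes 2 were called in each direction, also near those shares: MX1 (15.96 and 11.1 CPM, against 1.38 and 1.41 CPM) and BST2 were higher, and IFIT2 (6.74 and 8.37 CPM, against 34.67 and 30.81 CPM) and ISG15 were lower. Without GR3 library 1, GR3 library 2 or tolerant library 2, 2 antigen presentation genes were called higher, and 1, 2 and 1 lower; without tolerant library 2, 3 interferon-stimulated genes were lower.

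Other lists gave mixed counts, beside 14.7% higher and 13.9% lower over all genes. FOXO targets and PI3K brakes had 3 of 16 higher and 4 lower, among them the FOXO targets DEPP1 (85.11 and 90.34 CPM in GR3, 21.06 and 10.35 CPM in tolerant cells) and SESN3 (21.61 and 11.12 CPM, against 0.95 and 1.34 CPM), both higher. Wnt genes had 5 of 18 higher and 3 lower, with the secreted inhibitor DKK1 lower at 13.47 and 10.43 CPM in GR3, against 159.21 and 165.74 CPM (-3.67 ± 0.38, adjusted p = 5.66e-06). The YAP targets had 5 of 18 in each direction. These lists thus held large differences of both signs. Mucins and secretory glycoproteins had 3 of 16 higher and 4 lower. The alveolar and foregut list had 2 of 10 higher and 3 lower, with the foregut factor GATA6 at 10.63 and 12.26 CPM, against 33.4 and 33.59 CPM (-1.47 ± 0.20, adjusted p = 5.81e-05). Glycolysis and hypoxia genes had 2 of 24 higher and 3 lower, Notch genes 1 of 12 higher and 2 lower, and S100 genes 1 of 11 higher and 2 lower. Squamous and basal genes had 2 of 11 higher and 1 lower, neuroendocrine genes 1 of 3 in each direction, and the leukocyte, endothelial and fibroblast markers 0 of 5 higher and 2 lower. Without tolerant library 2 there were 2 higher Wnt, 1 higher YAP, 0 higher mucin and 0 higher alveolar genes. Without GR3 library 2 there were 3 higher Wnt, 2 higher YAP and 0 higher alveolar genes, and without GR3 library 1 there were 3 higher Wnt genes, 1 higher mucin and 2 lower mucins. Glycolysis genes had 0 higher without GR3 library 1, GR3 library 2 or tolerant library 1, and 1 without tolerant library 2. Squamous genes had 1 higher without GR3 library 2 or tolerant library 2, and the lower neuroendocrine gene was not called when any 1 of the 4 was left out. Counts of 1 or 2 in the Notch and S100 lists moved by at most 1.

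Much of the contrast was present without inhibitor. Under vehicle, which shares no library with the comparison under WZ4002, 4184 genes were called, 27% of those tested, with 2127 higher (13.7%) and 2057 lower (13.3%) in GR3. Of the genes called under WZ4002, 2492 were called in the same direction under vehicle, which is 56.2% of the calls under WZ4002 and 59.6% of those under vehicle, and 25 were called in opposite directions. The number called under vehicle was 2444 without GR3 vehicle library 2, 2680 without tolerant vehicle library 1 and 2485 without tolerant vehicle library 2. Over all genes the differences under the 2 treatments correlated with a Pearson r of 0.76, a description over genes that are not independent. PXDN had 0.07 and 0.25 CPM in GR3 under vehicle, against 242.57 and 276.44 CPM in tolerant cells (-7.81, adjusted p = 1.7e-14). TNFAIP3 had 15.01 and 11.69 CPM under vehicle, against 129.82 and 169.44 CPM (-3.39, adjusted p = 1.64e-06). LAMA3 had 41.5 and 57.48 CPM, against 327.0 and 369.69 CPM (-2.81, adjusted p = 2.64e-06). For these 3 genes the gap without drug was about as large as with it. Matrix genes had 5 of 24 higher and 10 lower under vehicle, integrins 0 of 12 higher and 6 lower, and NF-kB genes 0 of 15 higher and 5 lower.

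**Figure D4:**
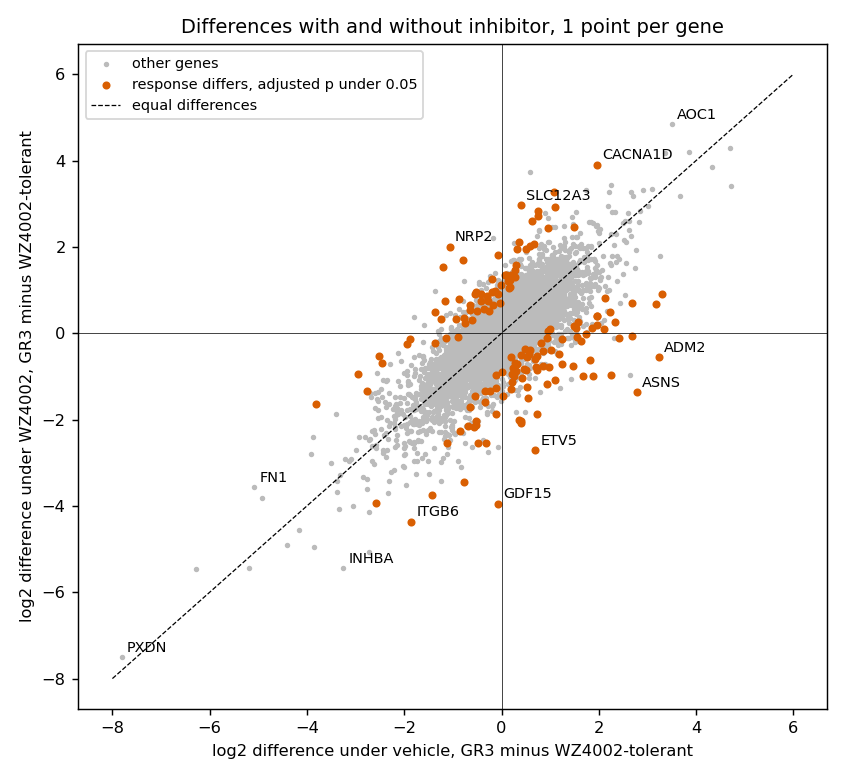
Log2 difference of CPM + 1, GR3 minus tolerant, under WZ4002 (vertical) against vehicle (horizontal), 1 point per gene; orange points are the 154 genes whose response to WZ4002 differed. PXDN lies near the dashed line of equal differences, at -7.51 under WZ4002 and -7.81 under vehicle, whereas ASNS lies at -1.36 under WZ4002 and 2.78 under vehicle.

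The response to WZ4002 itself differed between the populations for 154 genes, 0.995% of those tested, with 64 more positive (0.413%) and 90 more negative (0.581%) in GR3. Of these, 65 were called under WZ4002 and not under vehicle, 43 under vehicle and not under WZ4002, 23 under both in the same direction and 23 under both in opposite directions. The count depends on single libraries: it was 15 without tolerant WZ4002 library 2, 40 without GR3 WZ4002 library 2, 45 without tolerant vehicle library 1, 57 without GR3 vehicle library 2 and 463 without GR3 vehicle library 1. Of the 154, 14 were called without that tolerant WZ4002 library. Fitted to the libraries compared alone, limma called 0 genes. Every call of a differing response thus rests on the spread shared over all 22 libraries.

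ERK output was one such group, with 5 of 17 genes more negative in GR3 and 0 more positive, and a median of -1.64. ETV5 had 0.84 and 0.67 CPM with WZ4002 and 99.42 and 92.04 CPM with vehicle in GR3, and 5.84 and 18.26 CPM with WZ4002 and 65.14 and 53.21 CPM with vehicle in tolerant cells. Its change with the drug was -5.79 in GR3 and -2.38 in tolerant cells, a difference of responses of -3.40 ± 0.54 (adjusted p = 0.0105). That of IER3 was -2.80 in GR3 (adjusted p = 1.69e-05) and -0.14 in tolerant cells (adjusted p = 0.744), a difference of -2.66 ± 0.41 (adjusted p = 0.00997). Under vehicle GR3 differed from tolerant cells by 0.69 for ETV5 (adjusted p = 0.202) and by -0.78 for IER3 (adjusted p = 0.0592), and neither was called. ETV4 (-2.48 ± 0.43, adjusted p = 0.0167) and DUSP4 (-2.34 ± 0.46, adjusted p = 0.0255) differed in the same direction. EGR1, named after its values were seen, was at 0.56 and 0.93 CPM in GR3 and at 0.55 and 1.15 CPM in tolerant cells under WZ4002, and its response differed through the vehicle levels, 10.2 and 36.49 CPM in GR3 against 3.46 and 1.29 CPM. Without GR3 WZ4002 library 2 or tolerant WZ4002 library 2, 2 of the 17 differed. Without GR3 vehicle library 2, GR3 WZ4002 library 1 or tolerant vehicle library 2, 3 differed. The call of ETV4 was lost without GR3 WZ4002 library 2 (adjusted p = 0.0699) or tolerant WZ4002 library 2 (0.0625). That of DUSP4 was kept only without GR3 vehicle library 1 or tolerant WZ4002 library 1 (otherwise 0.0545 to 0.137). That of EGR1 (-2.75 ± 0.61, adjusted p = 0.0431) was kept only without GR3 vehicle library 1 (otherwise 0.0551 to 0.202).

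Genes of serine synthesis and the integrated stress response were the other such group. That response, driven by the transcription factor ATF4, raises amino acid synthesis and transport genes. Under WZ4002 0 of 20 were called higher in GR3 and 6 lower, with a median of -0.51, and under vehicle 14 were called higher and 0 lower, with a median of 1.18. ASNS, asparagine synthetase, had 7.38 and 5.05 CPM with WZ4002 and 31.25 and 141.77 CPM with vehicle in GR3. In tolerant cells it had 15.45 and 19.27 CPM with WZ4002 and 8.49 and 9.29 CPM with vehicle. The ASNS difference of responses was -4.14 ± 0.60 (adjusted p = 0.00788): GR3 was above tolerant cells without the drug and below them with it. CHAC1, a glutathione-degrading enzyme, had 0.65 and 0.59 CPM with WZ4002 and 5.04 and 17.25 CPM with vehicle in GR3, against 1.84 and 2.53 CPM with WZ4002 and 0.94 and 1.54 CPM with vehicle in tolerant cells (-3.21 ± 0.51, adjusted p = 0.0102). PSAT1 (-2.44 ± 0.42, adjusted p = 0.0157), PHGDH (-1.76 ± 0.36, adjusted p = 0.0299) and SESN2 (-2.65 ± 0.44, adjusted p = 0.0121), named after their values were seen, complete the 5 of 20 whose response differed. The GR3 vehicle libraries differed from each other, since the list summed to 1998 and 3864 CPM there. It summed to 1349 and 1279 CPM in tolerant cells given vehicle. Given vehicle, parental cells had 3311 and 2820 CPM and GR2 cells 5580 and 5219 CPM. The WZ4002-tolerant libraries were thus below GR3, parental and GR2 cells. Gefitinib-tolerant PC9 cells given vehicle were about as low, at 1353 and 1133 CPM. The parental, GR2 and gefitinib-tolerant sums were not tested. Without GR3 vehicle library 2, 9 of the 20 were called higher under vehicle (median 0.69), and without GR3 vehicle library 1, 16 were (median 1.87).

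Under WZ4002 the integrated stress genes rested on few libraries. ATF3, a stress-induced transcription factor, had 1.52 and 6.62 CPM in GR3, against 15.56 and 13.68 CPM in tolerant cells (-1.83 ± 0.47, adjusted p = 0.00842), and was not called without GR3 library 1 (-1.03, adjusted p = 0.142). ASNS (-1.36 ± 0.42, adjusted p = 0.0247) was not called without GR3 library 2 (0.149), tolerant library 1 (0.0517) or tolerant library 2 (0.148), nor by limma-voom (0.0578). The count of 6 lower genes was 2 without GR3 library 1, GR3 library 2 or tolerant library 1, and 1 without tolerant library 2. The count of 5 genes with differing responses was 13 without GR3 vehicle library 1, 3 without tolerant vehicle library 1 and 1 without tolerant WZ4002 library 2, where the adjusted p for CHAC1 was 0.0609. The calls of PSAT1 (adjusted p = 0.0853), PHGDH (0.116) and SESN2 (0.0609) were also lost without tolerant WZ4002 library 2. Those of PSAT1 (0.0698) and PHGDH (0.119) were lost without GR3 WZ4002 library 2, and those of PHGDH (0.0757) and SESN2 (0.0557) without tolerant vehicle library 1. That of PHGDH was lost as well without GR3 vehicle library 2 (0.11), tolerant vehicle library 2 (0.0793) or tolerant WZ4002 library 1 (0.056).

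The promoters of ASNS and CHAC1 are shown because both genes were higher in GR3 under vehicle, had differences of the opposite sign under WZ4002, and hold the composite element TGATGNAA, to which ATF4 is known to bind. They are from RefSeq, build GRCh38.p14, over the same window, at chr7:97872359-97872658 (-) and chr15:40953221-40953520 (+), with the element in capitals. In CHAC1 it lies on the opposite strand, so the capitals give its reverse complement.
ASNS: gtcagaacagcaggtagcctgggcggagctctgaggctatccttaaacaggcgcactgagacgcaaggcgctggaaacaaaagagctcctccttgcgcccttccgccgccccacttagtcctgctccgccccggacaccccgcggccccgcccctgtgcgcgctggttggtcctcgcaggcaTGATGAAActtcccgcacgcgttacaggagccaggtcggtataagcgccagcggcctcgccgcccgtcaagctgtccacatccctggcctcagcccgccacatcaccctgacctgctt
CHAC1: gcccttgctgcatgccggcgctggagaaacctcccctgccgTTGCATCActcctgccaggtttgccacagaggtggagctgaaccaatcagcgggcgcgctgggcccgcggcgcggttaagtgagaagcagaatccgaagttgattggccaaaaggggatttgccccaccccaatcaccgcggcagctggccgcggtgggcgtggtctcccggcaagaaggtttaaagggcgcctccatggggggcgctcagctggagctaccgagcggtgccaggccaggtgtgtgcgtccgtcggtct
RefSeq gives 2 promoters for ASNS, and the one shown was chosen for holding the element. The element, searched on both strands, starts 68 bases before the gene start in the ASNS promoter shown and 209 bases before it in CHAC1. It was in 3.62% of the 35116 RefSeq promoters, belonging to 4.46% of genes, and in 5 of the 16 list members that had a promoter. That list too was written from general knowledge of the response, with earlier results of these data known, so its share reflects that choice.

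**Figure D5:**
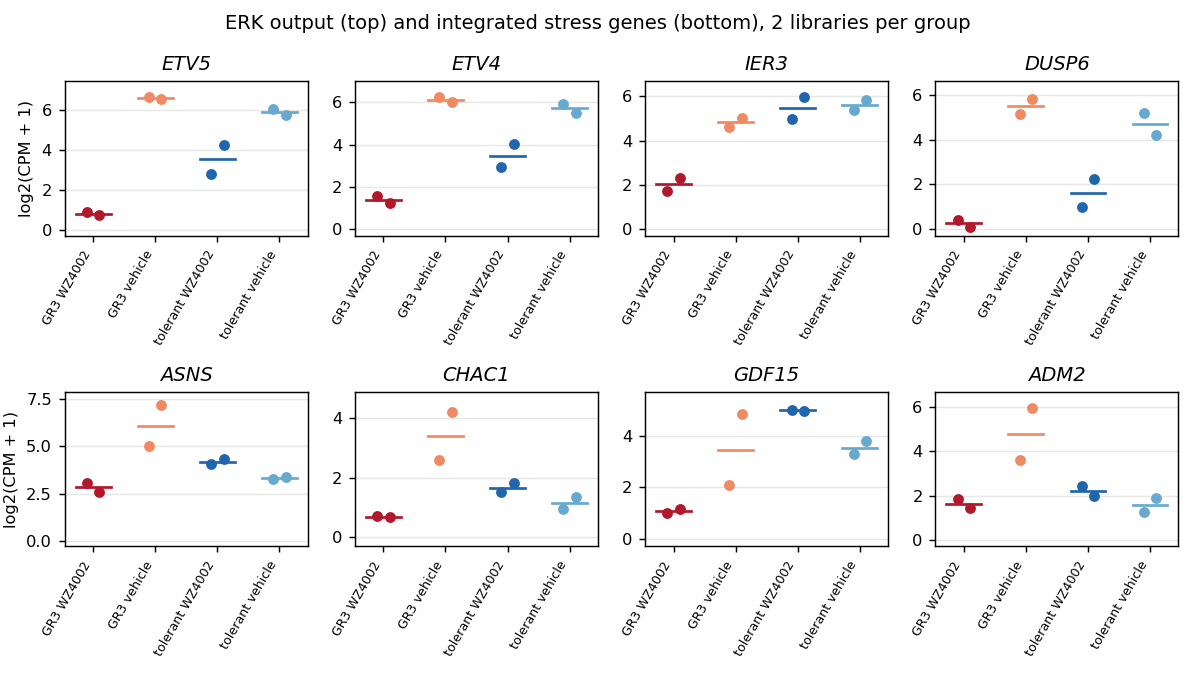
Levels of 4 ERK output genes (top) and 4 stress genes (bottom) as log2(CPM + 1) in GR3 with WZ4002 and vehicle and in tolerant cells with WZ4002 and vehicle; points are libraries and bars are means. ETV5 under WZ4002 is at 0.84 and 0.67 CPM in GR3 against 5.84 and 18.26 CPM in tolerant cells, and ASNS is highest in GR3 with vehicle, at 31.25 and 141.77 CPM.

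Outside these lists the secreted stress cytokine GDF15 differed in response by -3.87 ± 0.76 (adjusted p = 0.0255). It had 1.0 and 1.21 CPM with WZ4002 and 3.27 and 28.1 CPM with vehicle in GR3, against 31.79 and 31.01 CPM with WZ4002 and 8.8 and 13.01 CPM with vehicle in tolerant cells. The peptide hormone ADM2 differed by -3.79 ± 0.67 (adjusted p = 0.0173). The call of GDF15 was lost without GR3 WZ4002 library 1 (adjusted p = 0.0567) or 2 (0.0792), tolerant WZ4002 library 1 (0.0519) or 2 (0.112), or tolerant vehicle library 1 (0.114), and the value was -2.49 without GR3 vehicle library 2. The call of ADM2 was lost without GR3 WZ4002 library 2 (0.0699), tolerant WZ4002 library 2 (0.0609) or tolerant vehicle library 1 (0.0818). In the positive direction, the semaphorin co-receptor NRP2 had 81.47 and 69.07 CPM with WZ4002 and 31.51 and 47.49 CPM with vehicle in GR3, against 27.99 and 11.43 CPM and 95.21 and 71.11 CPM in tolerant cells (3.07 ± 0.46, adjusted p = 0.00947). GREB1L had 22.83 and 30.9 CPM with WZ4002 and 5.41 and 7.32 CPM with vehicle in GR3, against 7.62 and 7.38 CPM and 11.26 and 12.18 CPM in tolerant cells (2.50 ± 0.26, adjusted p = 0.000493). Both genes were lower in GR3 than in tolerant cells under vehicle and higher under WZ4002, in every library. The vehicle difference of NRP2 (-1.07, adjusted p = 0.0229) was lost without GR3 vehicle library 1 (0.147) or tolerant vehicle library 1 (0.161).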

How the data were processed

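Polyadenylated RNA was extracted on columns and sequenced from a directional kit, per the labels. The submitters' processing notes name STAR, HTSeq and hg19 without versions; the strand setting is not given in the sources used here. The authors deposited CPM for 17165 genes, rounded to 2 decimals, and the table holds no 0, so genes silent in any of the 22 libraries were not analysed here. CPM were multiples of a single step per library, which gave the read totals: 99.9883% or more of values came out whole within rounding, against 23.6% to 49.6% by chance. The genes listed carried 54.6% to 60.6% of the total in the GR3 and tolerant libraries. Genes at 1 CPM or more in at least 2 libraries were kept (15485; 1680 left out), of which 14529 carried a symbol. Limma 3.58.1 in R 4.3.3 was fitted to log2(CPM + 1) with 11 group means over all 22 libraries, empirical Bayes moderation and an intensity trend (11 residual degrees of freedom, 4.8 prior). Benjamini-Hochberg adjustment was made per contrast over all genes kept, and the fit was tested on simulated data. Alternatives were other scaling, filter, pseudocount, trend, libraries, a replicate block and left-out libraries.

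The comparisons, the 32 gene lists and the naming rule were chosen with earlier results of these data known. Genes were named by the 12 largest differences in each direction under WZ4002 (called, at 5 CPM or more in a group, no overlap), those under 1 CPM in both libraries of one group and at 5 CPM or more in both of the other, for each list its lowest p-values, to a maximum of 4 genes, the 5 largest differences of response in each direction, and EGFR, DUSP6, BCL2L11 and MCL1. Not every gene so chosen is printed, and some items are not reported here.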

Additional observations from a re-analysis of the deposited data

Results flagged for a closer look

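Each result here was singled out because the change with WZ4002 differed between GR3 and tolerant cells by the limma test of that difference. The test used the fit of all 22 libraries, and 0 genes were called in a fit of the libraries compared alone. Values are log2 differences of responses, GR3 minus tolerant. Responses were more negative in GR3 for ASNS (-4.14), GDF15 (-3.87), ADM2 (-3.79), ETV5 (-3.40), CHAC1 (-3.21), EGR1 (-2.75), IER3 (-2.66), SESN2 (-2.65), ITGB6 (-2.51), ETV4 (-2.48), PSAT1 (-2.44), DUSP4 (-2.34) and PHGDH (-1.76). They were more positive for NRP2 (3.07), SLC12A3, a sodium chloride cotransporter (2.56), GREB1L (2.50), CD74 (2.21), FST (2.09), APLN (1.97), CACNA1D (1.95), LRP2 (1.83), FGFR1 (1.49) and KRT8 (1.16).

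The call of ITGB6 was lost without GR3 vehicle library 2 (adjusted p = 0.0539), GR3 WZ4002 library 2 (0.0839), tolerant vehicle library 1 (0.0976) or tolerant WZ4002 library 2 (0.0853). CD74, FST, APLN, LRP2 and SLC12A3 were below 3 CPM in GR3 given vehicle and in tolerant cells. The call of CD74 was kept only without GR3 vehicle library 1 (otherwise adjusted p = 0.0519 to 0.143), and that of APLN only without GR3 vehicle library 1 or GR3 WZ4002 library 1 (otherwise 0.0563 to 0.135). That of FST was kept only without GR3 vehicle library 1, GR3 WZ4002 library 2 or tolerant vehicle library 2 (otherwise 0.065 to 0.159), and that of LRP2 only without GR3 vehicle library 2 or tolerant WZ4002 library 1 (otherwise 0.0612 to 0.216). SLC12A3 was lost without tolerant WZ4002 library 2 (0.0604). KRT8 was kept without GR3 vehicle library 1, GR3 WZ4002 library 1 or tolerant WZ4002 library 1 (otherwise 0.0602 to 0.116). FGFR1 was lost without GR3 vehicle library 2 (0.0747), GR3 WZ4002 library 1 (0.0545), tolerant vehicle library 2 (0.0581) or tolerant WZ4002 library 2 (0.0612). Limma-voom on recovered reads did not call CACNA1D (adjusted p = 0.463), CD74 (0.449), APLN (0.322), FST (0.127), LRP2 (0.697), SLC12A3 (0.387), EGR1 (0.292), ADM2 (0.0968) or GDF15 (0.0714).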

How the results depend on the processing

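The count of genes differing under WZ4002 was 4435, and it stayed within 1.5 times that under the changes of scaling, filter, trend, pseudocount and libraries in the fit (3060 to 4584). Leave-one-out fits gave 2453 to 3902 under WZ4002, 2444 to 4562 under vehicle and 15 to 463 for the difference of responses. Fitting only the libraries compared gave 1659 calls under vehicle and 0 for the difference of responses (limma; 1916 at an unadjusted p under 0.05 in the fit of all 22 libraries). For that difference limma-voom on reads recovered from the CPM steps gave 87 and a pseudocount of 0.1 gave 95. Limma-voom was added after the data were seen. The planned edgeR and DESeq2 tests were not run, since reads could only be estimated, from CPM rounded to 2 decimals. The cause of these changes was not tested. A fit with the replicate block gave 4715, 4484 and 182 calls, and the labels do not say that a number marks a shared batch. Deviations of same-numbered libraries correlated at 0.05 for GR3 and tolerant cells under WZ4002, and at 0.136 under vehicle. Between WZ4002 and vehicle they correlated at 0.357 within GR3 and at -0.049 within tolerant cells. Over all pairs of groups the range was -0.464 to 0.633. The samples were treated as sharing only a number, although some groups did share deviations. The replicate block assumes the same shift by number in every group, and other shared structure was not tested. GDF15 under vehicle, -0.07 and not called, was 1.31 without GR3 vehicle library 1 (adjusted p = 0.00214) and ranged from -1.46 to 1.31 over the left-out libraries. Genes near 0 CPM in one group moved most with the pseudocount: CACNA1D was 6.51 and DLC1 -5.56 at 0.1. Where a fit leaves 1 library in a group, that library is assumed to vary like the others.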
